A study of Mus musculus with 15 samples.

Results

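The genes described here are 8 mouse genes through which macrophages take up, store, sense and export lipid: Nr1h3, Pparg, Abca1, Abcg1, Apoe, Lpl, Plin2 and Trem2. They were taken as a named list, which was chosen with earlier results of these data known. For each gene the sequenced tags were counted in 3 kb at its start, in mm9 coordinates. Tags were also counted in every 3 kb window over the gene body and 30 kb on each side. The list makes up 8 of 22350 protein-coding starts, and its loci were divided into 297 windows laid out from each start. Genome shares come from a separate grid of 831397 windows that had a tag in any library. All 8 genes were found in the annotation.

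The libraries came from C10 cells, a single line derived from the mouse pre-B line HAFTL that carries C/EBPαER, a fusion of the myeloid transcription factor C/EBPα with an estrogen receptor domain, tagged with GFP. Induction was by β-estradiol, the ligand of the fusion, under which these cells become macrophage-like, and the induced cells were also given 10 nM IL-3 and CSF-1. The labels put estradiol at 100 nM. The published methods name another unit for it, and which holds could not be settled here. Chromatin immunoprecipitation and sequencing (ChIP-seq) was done for H3K4Me1, found at active and poised enhancers alike, for H3K27Ac, a mark of active enhancers and promoters, and for H3K27Me3, a mark laid down by the Polycomb system on repressed genes, at 0, 3, 12, 24 and 48 hours post-induction (hpi). Each of the 15 mark and time groups held 1 library, so there was no replicate spread to compare times with and no test was made. The labels name 0.1% ethanol as the solvent given to control cells, but they do not say whether the 0 hpi cells received it.

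Cholesterol and fatty acids reach macrophages in lipoproteins and in the cells they engulf. Nr1h3 encodes LXRα and Pparg encodes PPARγ, nuclear receptors that pair with RXR and turn on lipid genes when they bind oxysterols or fatty acid derivatives. Abca1 and Abcg1 encode transporters that pass cholesterol to apolipoprotein A-I and to HDL, and Apoe encodes an apolipoprotein that macrophages secrete with exported cholesterol. All 3 are known LXR target genes. Lpl encodes the lipase that releases fatty acids from circulating triglyceride, Plin2 encodes a coat protein of lipid droplets, and Trem2 encodes a lipid-binding surface receptor that signals through the adaptor Tyrobp.

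The deposited libraries held 11.04 to 31.56 M tags. They were thinned to equal depth within each mark, which left 10.91 M tags per library and a mean of 13.1 per 3 kb window for H3K4Me1. H3K27Ac kept 15.22 M, a mean of 18.3, and H3K27Me3 kept 15.34 M, a mean of 18.4. A window was called enriched from 27 tags for H3K4Me1 and from 34 for the other 2 marks. A change was called when 2 times differed at least 2-fold and by at least 10 tags. All intervals are exact 95% intervals that cover counting error only. H3K27Ac at 24 hpi held 80.3% of its tags in enriched windows, against 65.4% to 73.0% at the other times, so peaks at 24 hpi were read against a more concentrated library. The labels were set against markers of both cell types. H3K27Ac at the starts of 6 pre-B genes summed to 6965 tags at 0 hpi and 2423 at 48 hpi, and 5 of them were called lower (Cd79a, Cd79b, Igll1, Pax5 and Ebf1, with Vpreb1 just short of 2-fold at a log2 change of -0.99). At 7 macrophage genes the sum went from 624 to 3662 tags, all 7 were called higher, and no marker of either list was at 0 at any time. Tags of a mixed population cannot tell more cells with a mark from more of the mark per cell.

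The stretches of mm9 sequence printed next were taken at starts with a called H3K27Ac change and inside the largest distal gains. Changes at starts were counted in 3 kb, so they need not fall on the bases printed. Some larger changes described below are not printed. The first set holds the 250 bases before the starts of the 4 genes with a called H3K27Ac change at the start, written 5′ to 3′ along the gene. The Abca1 stretch lies at chr4:53172768-53173017 (minus strand), the Apoe stretch at chr7:20284516-20284765 (minus strand), the Trem2 stretch at chr17:48485476-48485725 (plus strand) and the Abcg1 stretch at chr17:31194393-31194642 (plus strand). Capitals mark every match, on either strand, to 5 motifs: C/EBP (TTGCNNAA), PU.1 (GAGGAAG), AP-1 (TGANTCA), an LXR element of 2 half-sites 4 bases apart (NGGTNANNNNNGGTCA) and a PPAR element of 2 half-sites 1 base apart (AGGNCANAGGNCA). No matches overlapped in the printed stretches.
Abca1 promoter: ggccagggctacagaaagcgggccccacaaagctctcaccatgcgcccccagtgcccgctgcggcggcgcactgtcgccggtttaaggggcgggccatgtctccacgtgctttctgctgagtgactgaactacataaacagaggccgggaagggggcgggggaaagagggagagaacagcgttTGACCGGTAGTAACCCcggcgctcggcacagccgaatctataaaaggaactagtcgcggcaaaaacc
Apoe promoter: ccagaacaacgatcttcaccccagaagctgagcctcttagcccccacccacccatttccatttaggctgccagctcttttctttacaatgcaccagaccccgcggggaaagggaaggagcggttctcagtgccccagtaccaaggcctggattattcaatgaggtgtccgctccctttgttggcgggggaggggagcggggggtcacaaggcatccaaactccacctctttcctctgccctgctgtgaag
Trem2 promoter: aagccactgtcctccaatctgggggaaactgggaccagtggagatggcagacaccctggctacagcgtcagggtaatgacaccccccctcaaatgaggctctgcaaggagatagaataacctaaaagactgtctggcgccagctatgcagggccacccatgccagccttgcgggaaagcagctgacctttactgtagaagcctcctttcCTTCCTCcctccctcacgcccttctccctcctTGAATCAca
Abcg1 promoter: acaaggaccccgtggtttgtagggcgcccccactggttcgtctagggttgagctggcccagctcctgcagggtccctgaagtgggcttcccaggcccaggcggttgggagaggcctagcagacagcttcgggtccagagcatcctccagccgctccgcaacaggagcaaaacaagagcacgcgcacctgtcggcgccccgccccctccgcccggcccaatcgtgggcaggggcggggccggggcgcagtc

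The capitals in the Abca1 promoter are the LXR element, whose first base lies at position -67 from the start and which reads on the strand opposite to the gene. This promoter is known as one through which LXR acts. The same letters were found in 26 of 22350 promoters of this length (0.116%). Trem2 held a PU.1 match at position -41 and an AP-1 match at position -9, and PU.1 matches occurred in 10.6% and AP-1 matches in 1342 of all 22350 promoters. The Apoe and Abcg1 stretches held none of the 5 motifs. C/EBP letters occurred in 9.16% and the PPAR element in 0.340% of all promoters. Abcg1 was the richest in G and C at 69.6% with 18 CpG, followed by Abca1 with 61.6% and 20 CpG, Apoe with 57.6% and 7 CpG, and Trem2 with 56.0% and 4 CpG.

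The second set holds the densest 300 bases of H3K27Ac at 48 hpi inside the largest distal gains, written along the plus strand. They lie in the Abca1 intron at chr4:53132847-53133146, upstream of Plin2 at chr4:86335614-86335913 and downstream of Pparg at chr6:115469059-115469358. They held 217, 201 and 123 H3K27Ac tags at 48 hpi. The gain 21 kb upstream of Trem2 ranked just ahead of the one at Pparg, but its densest stretch, with 185 tags, overlaps an exon of the neighbouring gene B430306N03Rik and is not printed.
Abca1 intron: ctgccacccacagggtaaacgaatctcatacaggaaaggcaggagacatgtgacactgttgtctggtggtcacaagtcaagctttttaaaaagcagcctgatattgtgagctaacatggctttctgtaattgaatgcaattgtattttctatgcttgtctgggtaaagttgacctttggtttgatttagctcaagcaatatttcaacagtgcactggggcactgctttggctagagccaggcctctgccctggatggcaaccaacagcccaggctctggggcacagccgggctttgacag
Plin2 upstream: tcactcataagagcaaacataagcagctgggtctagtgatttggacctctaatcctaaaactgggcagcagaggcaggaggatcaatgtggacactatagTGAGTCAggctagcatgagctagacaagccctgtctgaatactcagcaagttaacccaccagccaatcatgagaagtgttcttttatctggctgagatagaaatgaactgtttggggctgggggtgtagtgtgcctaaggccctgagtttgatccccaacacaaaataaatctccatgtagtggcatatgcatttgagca
Pparg downstream: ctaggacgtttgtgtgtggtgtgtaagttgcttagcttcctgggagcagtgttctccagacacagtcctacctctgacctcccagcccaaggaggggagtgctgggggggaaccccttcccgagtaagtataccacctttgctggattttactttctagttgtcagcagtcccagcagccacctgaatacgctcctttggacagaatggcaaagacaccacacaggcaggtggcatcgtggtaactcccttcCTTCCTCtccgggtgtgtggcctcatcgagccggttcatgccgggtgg

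The Plin2 stretch held an AP-1 match and the Pparg stretch a PU.1 match, while the Abca1 stretch held none of the 5 motifs. In the densest 300 bases of all 62092 genome windows that gained H3K27Ac, AP-1 letters were found in 12.5%, PU.1 in 13.1%, C/EBP in 11.9%, the LXR element in 0.232% and the PPAR element in 0.722%.

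At the starts, the 8 genes split. H3K27Ac was called higher at 48 hpi than at 0 hpi at 3 of 8 starts (Abca1, Apoe and Trem2), where 5.46% of all protein-coding starts were called higher. It was called lower at 1 of 8 (Abcg1), against 8.61% of all starts. H3K4Me1 was called higher at 2 of 8 (Apoe and Trem2), against 3.65% of all starts, and lower at 1 of 8 (Abcg1), against 8.60%. The Abcg1 call in H3K4Me1 was lost with 6 kb at the start, where the log2 change was -0.77. H3K27Me3 was called higher at 1 of 8 (Pparg), against 2.03%, and lower at 0 of 8, against 2.66%. Most starts held few H3K27Me3 tags, so part of these shares can come from counting error alone. The median log2 change over the 8 starts was 1.08 for H3K27Ac, -0.47 for H3K4Me1 and -0.47 for H3K27Me3, beside -0.21, -0.42 and 0.00 over all starts with tags at both times. The H3K27Ac median lies between Plin2, at 0.84 and not called, and Pparg, at 1.32 from only 2 tags at 0 hpi and 5 at 48 hpi.

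These shares depend on the scaling of the libraries, and some of the members' calls do too. Scaling by background windows moved all 48 hpi log2 changes by 0.58 for H3K4Me1, -0.03 for H3K27Ac and 0.14 for H3K27Me3, and scaling by windows enriched at all 5 times moved them by 0.08, 0.27 and -0.15. For 3, 12 and 24 hpi in turn, background scaling moved H3K27Ac by -0.30, -0.13 and 0.62 and H3K4Me1 by 0.31, 0.65 and 0.67, so the height of 24 hpi against its neighbours depends on the scale. Of all starts called in H3K4Me1, 29.8% were called higher at equal depth, 75.0% under background scaling and 36.8% under scaling by constantly enriched windows. For H3K27Ac these shares were 38.8%, 35.9% and 58.6%, and for H3K27Me3 43.2%, 68.0% and 22.7%. Under both scalings Abca1, Apoe and Trem2 stayed more than 2-fold higher and Abcg1 more than 2-fold lower in H3K27Ac. Scaling by constantly enriched windows also brought the Plin2 start to a higher H3K27Ac call, from 333 to 719 tags. It brought the Nr1h3 start to a lower H3K27Me3 call, from 21 to 9.9 tags.

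**Figure D1:**
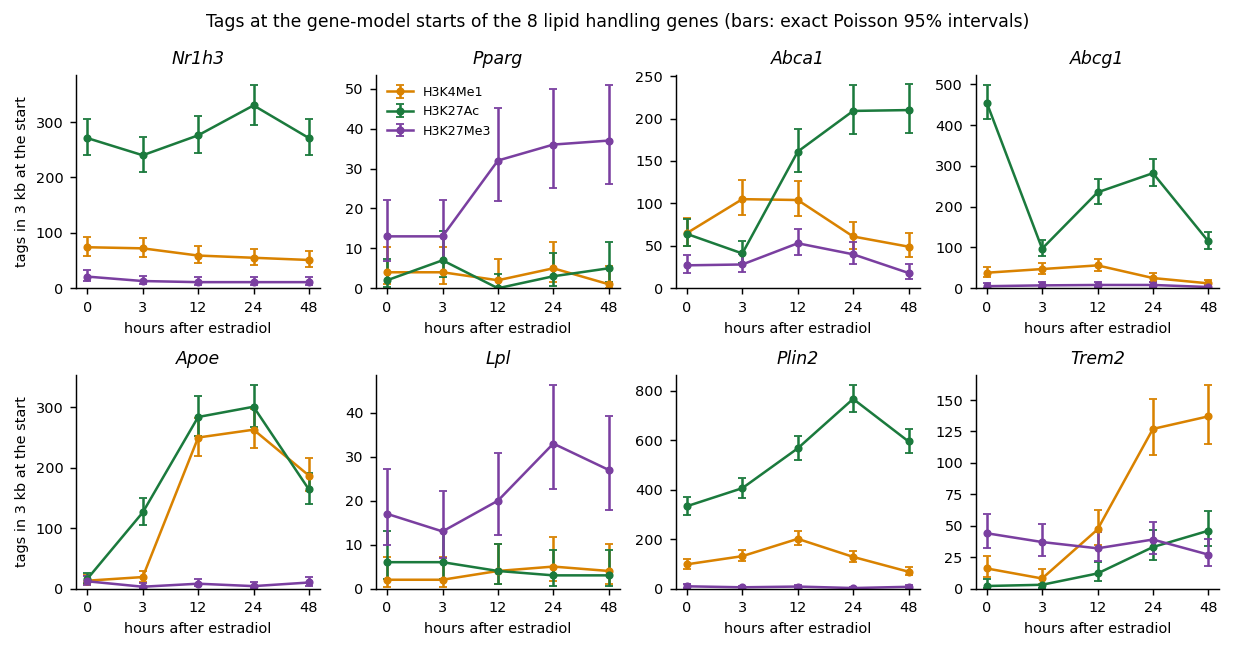
Tags in 3 kb at the gene-model start of each gene (y axis, tags, a separate scale per panel) against hours after estradiol (x axis, the 5 times drawn at even spacing), with 1 line per mark and bars for exact Poisson 95% intervals. H3K27Ac (green) climbed from 64 to 210 tags at Abca1 and from 16 to 164 at Apoe, dropped from 455 to 115 at Abcg1 and stayed at 7 tags or fewer at Pparg and Lpl.

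**Figure D2:**
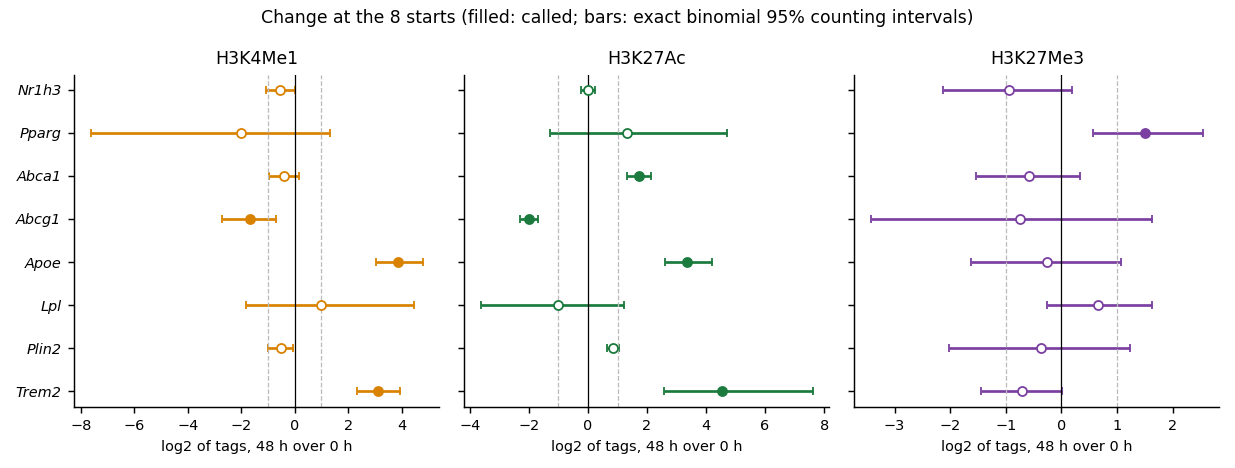
Log2 of tags at 48 hpi over 0 hpi at the 8 starts (x axis) for the 3 marks (panels), with exact binomial 95% counting intervals and a separate x scale per panel. Filled points are called changes and the dashed lines mark 2-fold: H3K27Ac is called at 4 starts (Abca1, Abcg1, Apoe and Trem2), H3K4Me1 at 3 (Abcg1, Apoe and Trem2) and H3K27Me3 at 1 (Pparg).

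Nr1h3 (ENSMUSG00000002108.4, chr2:91024218-91042991, minus strand) encodes LXRα. Its gene-model start belongs to a noncoding transcript and shares its window with the start of Acp2, a lysosomal phosphatase gene. H3K27Ac there was 271, 240, 276, 330 and 271 tags at 0, 3, 12, 24 and 48 hpi, a log2 change of 0.00 (-0.25 to 0.25) from 0 to 48 hpi. H3K4Me1 there went from 74 to 51 tags, a log2 change of -0.54 that became 0.05 under background scaling, so its direction depends on the scale. This shared start was therefore acetylated throughout, and reads of the 2 genes cannot be told apart in it.

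The 4 coding starts of Nr1h3 lie 7683 to 7949 bp further along and behaved differently. Their windows overlap, and the H3K27Ac log2 change ran from 1.26 at the farthest, with 10 tags at 0 hpi and 24 at 48 hpi and no enrichment, to 2.64 at the nearest, with 8 and 50. At the start 7718 bp along, H3K27Ac was 9, 12, 16, 42 and 46 tags, a log2 change of 2.35 (1.31 to 3.57), and it first passed the enrichment limit at 24 hpi. H3K4Me1 at this start was 11, 9, 30, 68 and 88 tags. H3K27Me3 was 39, 31, 54, 44 and 40 tags, so that all 3 marks were enriched there at 48 hpi. In the window 6 kb along, H3K27Ac was 9, 7, 36, 84 and 111 tags and H3K27Me3 was 59, 59, 53, 34 and 31 tags. The larger H3K27Ac counts at the LXRα coding starts were thus those of 24 and 48 hpi.

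The largest distal gain of the Nr1h3 locus was 36 kb along, in an intron of Madd, at chr2:91005491-91008490. Its H3K27Ac was 34, 20, 38, 76 and 238 tags, so that most of the rise fell between 24 and 48 hpi. The nearest coding start is that of Madd, 17004 bp away, and the start window of Madd, 18 kb along from Nr1h3, went the other way, from 428 to 195 tags. Over the locus, 7 of 27 windows gained H3K27Ac and 1 lost it. The locus total moved by a log2 of 0.27, above 70.9% of loci. Such totals are of the gene body and exactly 30 kb on each side, so they leave out the part of an outermost window that reaches farther.

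Pparg (ENSMUSG00000000440.6, chr6:115311239-115440419, plus strand) encodes PPARγ and had the most H3K27Me3 over its locus. At the gene-model start H3K27Ac was 2, 7, 0, 3 and 5 tags and H3K4Me1 was 4, 4, 2, 5 and 1 tags, none of them near enrichment. H3K27Me3 at this start was 13, 13, 32, 36 and 37 tags, a log2 change of 1.51 (0.56 to 2.54). The call rests on the width of the window: with 1 kb at the start the log2 change was -0.32, and with 6 kb it was 0.55. At the coding start 60845 bp along, H3K27Ac was 2, 12, 12, 15 and 26 tags and H3K4Me1 was 3, 15, 29, 38 and 53 tags. H3K27Me3 at this second start was 69, 67, 132, 105 and 102 tags.

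H3K27Me3 covered nearly all of the Pparg locus at every time. Of 64 windows, 57, 53, 62, 63 and 60 were enriched at the 5 times in order. The mean level over the locus, as a multiple of the genome mean, was 2.75, 2.85, 4.74, 4.09 and 4.03. Between 0 and 48 hpi the total of H3K27Me3 tags moved by a log2 of 0.56, more than in 98.2% of 22113 protein-coding loci, where the median was 0.03. Loci are drawn 30 kb beyond each gene, so neighbouring loci share tags.

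Within the same H3K27Me3 domain the enhancer marks came up at separate places. H3K4Me1 was called higher in 31 of 64 windows, where 5.71% of genome windows were, and H3K27Ac in 16, where 7.47% were. All 16 of the latter were enriched for H3K27Me3 at 0 hpi, as were 57 of all 64 windows. The largest gain was in the last window of the locus, 159 kb along at chr6:115468739-115471738, beyond the 3′ end of Pparg. There H3K27Ac was 14, 251, 588, 934 and 524 tags, a log2 change of 5.23 (4.47 to 6.11). H3K27Me3 in this window was 78, 99, 56, 35 and 36 tags, lower at 48 hpi while the locus as a whole was higher. Since the window is the edge of the counted region, the extent of the gain beyond it was not counted.

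Inside the gene, the window 120 kb along held 9, 28, 102, 161 and 126 H3K27Ac tags, and beyond its 3′ end the window 144 kb along held 5, 15, 145, 240 and 87. In that second window H3K4Me1 went from 14 to 254 tags and H3K27Me3 from 38 to 12. The H3K27Ac total of the locus was 455, 1008, 2137, 2505 and 1662 tags. It was highest at 24 hpi, in the library with the most tags in enriched windows, and lower at 48 than at 12 hpi. From 0 to 48 hpi its log2 change was 1.87, above 97.6% of loci.

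**Figure D3:**
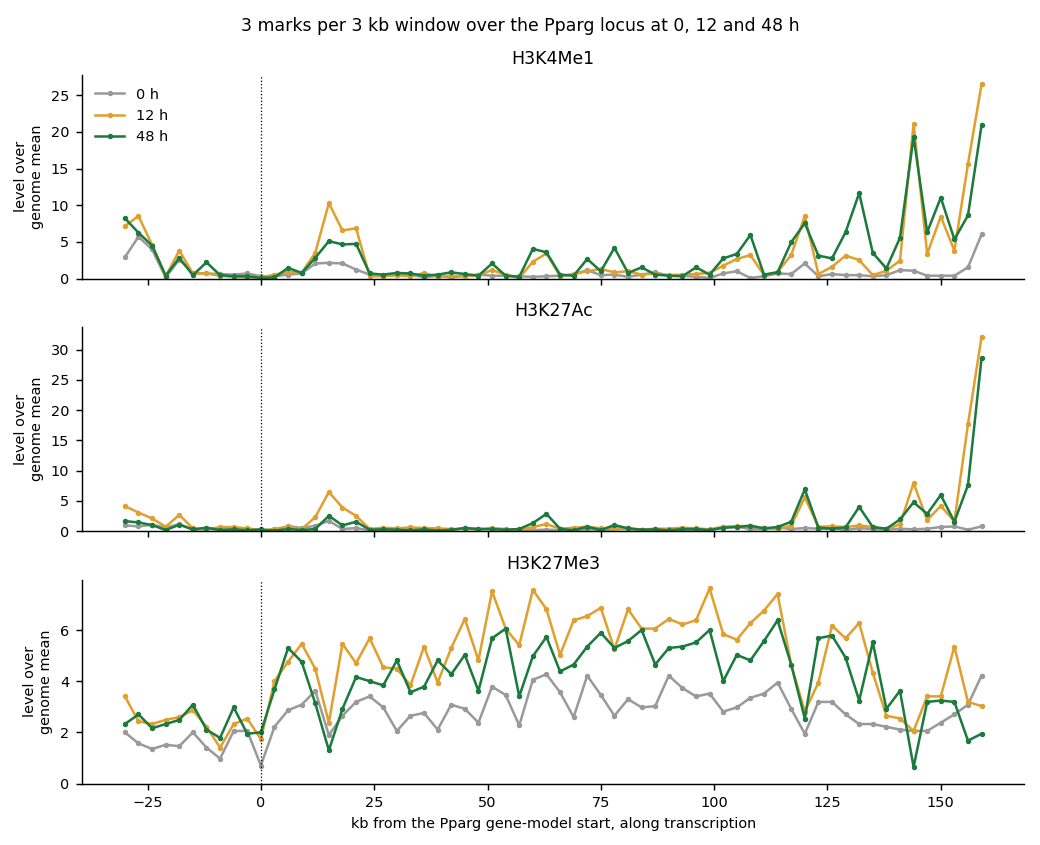
Level of 3 marks (panels, multiples of the genome mean) per 3 kb window against distance from the Pparg gene-model start (x axis, kb along transcription) at 0, 12 and 48 hpi. H3K27Me3 forms a broad plateau with a mean level of 2.75 in uninduced cells, 4.74 at 12 hpi and 4.03 at the end, while H3K27Ac is called higher in 16 and H3K4Me1 in 31 of 64 windows, with the highest H3K27Ac 159 kb along.

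Abca1 (ENSMUSG00000015243.4, chr4:53043659-53172767, minus strand), the cholesterol transporter whose promoter carries the LXR element shown above, gained most of its acetylation inside the gene. At the start, H3K27Ac was 64, 41, 161, 209 and 210 tags, a log2 change of 1.71 (1.30 to 2.14). The value at 3 hpi was below that at 0 hpi, and the 3 later values were all above both. With 1 kb at the start the log2 change was 0.93, which is under 2-fold. H3K4Me1 at the start was 65, 105, 104, 61 and 49 tags, a log2 change of -0.41 that became 0.18 under background scaling. H3K27Me3 was 27, 28, 53, 40 and 18 tags.

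The largest H3K27Ac gain of any member, counted in tags, lay 39 kb along, in an Abca1 intron at chr4:53132267-53135266, the window that holds the sequence shown above. H3K27Ac there was 22, 51, 957, 1519 and 1700 tags, a log2 change of 6.27 (5.67 to 6.95), and reached 92.9 times the genome mean. H3K4Me1 in this window was 69, 166, 464, 404 and 427 tags, so it was enriched from 0 hpi, before H3K27Ac. H3K27Me3 was 22, 31, 21, 11 and 9 tags. The nearest other coding start, Nipsnap3b, is 109014 bp from the centre of the window.

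A separate pair of windows 9 and 12 kb along held 115 and 152 H3K27Ac tags at 0 hpi and 1081 and 1089 at 48 hpi. Their counts at 3 hpi were 114 and 159, so the gain at both came after 3 hpi. At 12 hpi they held 809 and 912 tags. Over the gene and 30 kb on each side H3K27Ac was 1196, 1219, 5618, 7716 and 8915 tags, a log2 change of 2.90, more than in 99.4% of 22032 loci, where the median was -0.08. Of 64 windows, 27 were called higher. The 1 window called lower, from 159 to 20 tags, is the start of the neighbouring gene Nipsnap3a, an outermost window that the total holds only in part. Summed over all 64 windows the log2 change was 2.73.

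Abcg1 (ENSMUSG00000024030.6, chr17:31194643-31252722, plus strand), the transporter that loads HDL, was the only member whose start was called lower in H3K27Ac or H3K4Me1. H3K27Ac at its start was 455, 97, 235, 282 and 115 tags, a log2 change of -1.98 (-2.29 to -1.69) from 0 to 48 hpi. The counts dropped at 3 hpi, partly came back at 12 and 24 hpi, and were low again at 48 hpi. Under background scaling the count at 24 hpi was 432, close to that at 0 hpi. From 0 to 3 hpi the log2 change was -2.23 (-2.56 to -1.91). It was the 1 of 8 starts called lower at 3 hpi, against 1.77% of all starts. H3K4Me1 at the start was 38, 47, 56, 25 and 12 tags, and H3K27Me3 stayed between 3 and 8 tags.

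The drop at 3 hpi was also seen at other windows in the 5′ part of the gene, but the return after it differed. The next window held 481, 69, 246, 234 and 116 H3K27Ac tags, and the window 12 kb along held 187, 39, 62, 52 and 35. In all, 8 of 40 windows of the locus were called lower in H3K27Ac and 1 was called higher. The locus total was 2725, 830, 1881, 2099 and 1288 tags, a log2 change of -1.08, and 5.50% of all loci had a lower value. Under background scaling this total was highest at 24 hpi, with 3218 tags. An upstream window at 18 kb was acetylated at every time, with 517, 245, 456, 678 and 399 tags, and was lowest at 3 hpi as well. The largest distal difference upward was 21 kb upstream, with 46, 22, 105, 137 and 81 tags, short of 2-fold from 0 to 48 hpi but 1.09 on the log2 scale under scaling by constantly enriched windows. The 3 hpi library had the lowest share of tags in enriched windows (65.4%), and the part of this in the dip was not tested.

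Apoe (ENSMUSG00000002985.9, chr7:20281458-20284515, minus strand) was the earliest of the 8 to gain H3K27Ac at its start. H3K27Ac there was 16, 126, 284, 301 and 164 tags, a log2 change of 3.36 (2.61 to 4.20). At 3 hpi it was already 2.98 (2.22 to 3.83) above 0 hpi on the log2 scale, the 1 of 8 starts called higher at that time, against 3.15% of all starts. H3K4Me1 at the start was 13, 19, 250, 263 and 187 tags, so it was still at background at 3 hpi. H3K27Me3 was between 3 and 12 tags throughout. At the Apoe start, H3K27Ac thus passed its enrichment limit at an earlier time than H3K4Me1.

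The apolipoprotein genes next downstream of Apoe gained H3K27Ac as well. Apoc1, a small apolipoprotein gene, has its start in the window 6 kb along from the Apoe start, where H3K27Ac was 3, 279, 563, 512 and 356 tags. The largest distal gain by tags was 15 kb along at chr7:20268015-20271014, between Apoc1 and Apoc4, with 51, 544, 491, 589 and 406 H3K27Ac tags. H3K4Me1 in that window was 98, 221, 355, 261 and 215 tags. Here H3K27Ac at 3 hpi was already above its value at 48 hpi. The centre of this window is 2742 bp from the start of Apoc2 and 2749 bp from that of Apoc4, so it cannot be assigned to 1 of these genes.

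The window 3 kb upstream of Apoe, which holds an inner transcript start of Tomm40, was called higher, with 24 H3K27Ac tags at 0 hpi and 138 at 48 hpi. The outer Tomm40 starts and that of Clptm1 were not called. The window 15 kb upstream, at the start of the mitochondrial import gene Tomm40, held 238, 389, 289, 297 and 202 H3K27Ac tags. Downstream, the window 33 kb along, at the start of Clptm1, held 928, 855, 877, 976 and 621. In all, 13 of 22 windows of the locus were called higher and 0 lower. The locus total was 1467, 3605, 3955, 4130 and 2803 tags, a log2 change of 0.93 above that of 90.7% of loci. This total holds only part of the Clptm1 window, and over all 22 windows the log2 change was 0.68 (0.60 to 0.77).

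**Figure D4:**
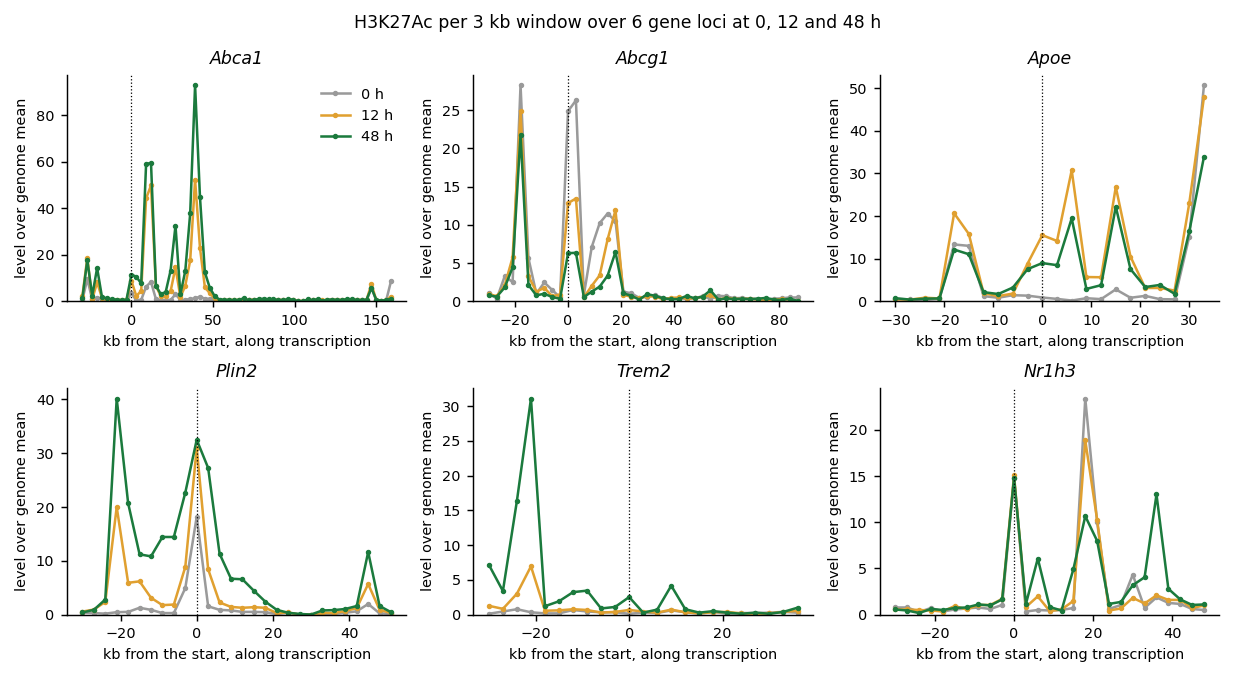
H3K27Ac level (y axis, multiples of the genome mean, a separate scale per panel) per 3 kb window against distance from the gene-model start (x axis, kb along transcription) for 6 loci at 0, 12 and 48 hpi. The highest window is 39 kb inside Abca1 and reaches 92.9 times the genome mean at 48 hpi, Plin2 rises over most of its locus, Trem2 is highest 21 kb upstream, and the Abcg1 start holds more at 0 hpi than at 12 or 48 hpi.

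Lpl (ENSMUSG00000015568.8, chr8:71404390-71431347, plus strand), the lipoprotein lipase gene, stayed without active marks at its start. H3K27Ac there was 6, 6, 4, 3 and 3 tags, H3K4Me1 was 2, 2, 4, 5 and 4 tags, and H3K27Me3 was 17, 13, 20, 33 and 27 tags. None reached the enrichment limit at any time, though H3K27Me3 at 24 hpi was just short of it and passed under background scaling, and at 6 tags or fewer a 2-fold change of either active mark would have been under the 10 tags that a call needs. Only 1 of 29 windows was called higher in H3K27Ac, 27 kb along, at the 3′ end of the gene, with 4, 6, 8, 15 and 14 tags. H3K4Me1 was called higher in 6 of 29 windows, beside the 5.71% of the genome. The H3K27Ac total of the locus moved by a log2 of 0.29, above 71.7% of loci. The largest of these H3K4Me1 counts lay 33 kb along, where H3K4Me1 went from 10 to 68 tags while H3K27Ac was 8 tags at both times. The H3K27Me3 total of the locus was 457, 505, 547, 698 and 694 tags, a log2 change of 0.60 that exceeded that of 98.6% of loci.

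Plin2 (ENSMUSG00000028494.6, chr4:86294290-86315964, minus strand), the droplet coat gene, was already acetylated at its start in the pre-B cells. H3K27Ac was 333, 406, 567, 767 and 595 tags, a log2 change of 0.84 (0.64 to 1.04) that missed the 2-fold call. It was 1.11 under scaling by constantly enriched windows and 1.43 in 6 kb at the start, but -0.16 in 1 kb at the start. H3K4Me1 was 98, 131, 201, 128 and 68 tags, a log2 change of -0.53 that became 0.06 under background scaling. The change at Plin2 thus lay around the start rather than on it.

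Downstream of the start, the coding start 4335 bp along held 17, 21, 93, 287 and 405 H3K27Ac tags, a log2 change of 4.57 (3.88 to 5.37). Upstream, the largest distal gain was 21 kb away at chr4:86335464-86338463, in the window of the sequence shown above, with 8, 142, 366, 620 and 735 tags and a log2 change of 6.52 (5.54 to 7.74). H3K4Me1 in this window was 14, 80, 218, 194 and 176 tags, and H3K27Me3 was 41, 42, 36, 27 and 14. Both active marks were enriched from 3 hpi, and H3K27Me3 was enriched until 12 hpi, or until 3 hpi under scaling by constantly enriched windows. The next coding start, Dennd4c, is 57496 bp from the centre of this window.

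Plin2 had the largest share of windows that gained H3K27Ac, 22 of 28, and none called lower. The window 9 kb upstream held 5, 15, 32, 96 and 264 tags, and most of its rise came after 12 hpi. The locus total was 652, 1035, 1975, 3352 and 4551 tags, a log2 change of 2.80 that was above that of 99.3% of loci. The total was higher at each time than at the one before, but under background scaling it was highest at 24 hpi.

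Trem2 (ENSMUSG00000023992.8, chr17:48485726-48493472, plus strand), the lipid-sensing receptor gene, came up late from very few tags. H3K27Ac at its start was 2, 3, 12, 33 and 46 tags, a log2 change of 4.52 (2.59 to 7.61), whose wide interval reflects the 2 tags at 0 hpi. It passed the enrichment limit of 34 tags only at 48 hpi, or from 24 hpi under background scaling. H3K4Me1 at the start was 16, 8, 47, 127 and 137 tags, a log2 change of 3.10 (2.35 to 3.95), and was enriched from 12 hpi. H3K27Me3 was 44, 37, 32, 39 and 27 tags. At this start H3K4Me1 was thus enriched earlier than H3K27Ac, the reverse of the order at Apoe.

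The largest gain of the Trem2 locus was 21 kb upstream at chr17:48463226-48466225, where H3K27Ac was 6, 9, 127, 417 and 569 tags, a log2 change of 6.57 (5.44 to 8.02). H3K4Me1 in this window was 7, 9, 127, 239 and 287 tags. The window lies in B430306N03Rik, whose start, 9259 bp from the centre, is nearer than that of Trem2. The start window of that neighbour, 30 kb upstream of Trem2, held 2, 6, 23, 106 and 131 H3K27Ac tags. Of 23 windows, 13 were called higher and 0 lower, and the locus total was 131, 132, 350, 900 and 1434 tags, with a log2 change of 3.45 above that of 99.7% of loci. The H3K27Me3 total of the locus was 632, 638, 677, 776 and 773 tags, a log2 change of 0.29 above that of 89.4% of loci. It rose although the count at the Trem2 start did not. Windows enriched for H3K27Me3 numbered 5 of 23 at 0 hpi and 13 at 48 hpi, but 0 were called higher. The relative Treml1, within 30 kb, had between 1 and 7 H3K27Ac tags at its start at all times.

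Across the 8 loci, 100 of 297 windows (33.7%) gained H3K27Ac by 48 hpi, beside 7.47% of all genome windows and 11% of windows within 30 kb of a protein-coding gene. A further 11 windows (3.70%) lost it, beside 3.26% of all genome windows, and 8 of these 11 were at Abcg1. Windows of a locus adjoin each other and are not independent. Of the 100 gained windows, 73 had neither H3K4Me1 nor H3K27Ac enriched at 0 hpi, 18 had H3K4Me1 alone, 8 had both and 1 had H3K27Ac alone. In all genome windows that gained H3K27Ac these classes took 72.7%, 18.6%, 8.33% and 0.377%, so the members' split was close to that of the genome.

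The loci differed in their starting state. Of the 27 gained windows at Abca1, 10 had H3K4Me1 alone and 5 had both marks at 0 hpi, whereas all 13 at Trem2 and 18 of 22 at Plin2 had neither. H3K27Me3 was enriched at 0 hpi in 35 of the 100 gained windows, 16 of them at Pparg, beside 15.7% of the genome windows that gained H3K27Ac. Of all 297 member windows, gained or not, 98 were enriched for it at 0 hpi, and 57 of 64 at Pparg. The share among the gained windows was thus close to that of these loci. Among the 69 gained windows that were H3K27Ac-enriched at 48 hpi, H3K4Me1 was enriched at an earlier time in 30, at the same time in 30 and later in 9. These are 43.5%, 43.5% and 13.0%, beside 42.6%, 38.4% and 18.9% in the genome, so the members' order was close to that of the genome. Background scaling gave 52.2%, 40.6% and 7.25% for the members and 52.3%, 37.0% and 10.7% for the genome. At Abca1 these counts were 14, 6 and 0 of 20, and at Apoe 1, 6 and 4 of 11, though at Apoe they became 1, 8 and 2 under background scaling and 1, 6 and 6 of 13 under scaling by constantly enriched windows. By 48 hpi, 81 of the 100 gained windows were also called higher in H3K4Me1, beside 54.7% of those of the genome.

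Other genes were read from a list of 67, of which 66 were matched and Hmgcs1 was not. The list held genes of lipid metabolism and also 8 partners and relatives of Trem2. H3K27Ac at the listed starts was called higher at 13 of 66 and lower at 9 of 66, beside 5.46% and 8.61% of all starts. Of the 13 called higher, 3 were partners or relatives of Trem2, and none of the 9 called lower was. Scaling by constantly enriched windows made these counts 16 and 4, adding Abca7, Dgat2 and Hilpda to those called higher, when 7.79% and 5.51% of all starts were called. The list had a median log2 change of 0.06 beside -0.21 over all starts. Among 8 receptors and regulators, 1 was called lower and none higher: Mylip, an LXR target that marks the LDL receptor for degradation, with 217, 48, 83, 73 and 35 tags. Its count, like that of Abcg1, was low at 3 hpi. The start of Nr1h2, which encodes LXRβ, held 441, 591, 384, 422 and 377 tags, and that of Srebf1, another LXR target and a regulator of fatty acid synthesis, 740, 771, 944, 974 and 591.

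Among 8 efflux and lipoprotein genes, 3 were called higher, and all 3 lie in the Apoe locus. Apoc1 held 7, 248, 453, 405 and 273 tags in 3 kb centred on its start, a log2 change of 5.29 (4.22 to 6.61). Apoc2, the cofactor of lipoprotein lipase, held 14, 278, 198, 199 and 143, and Apoc4 held 15, 278, 197, 198 and 141 in a window that nearly coincides with it. Among 7 uptake receptors, 2 were called higher. Msr1, a scavenger receptor for modified LDL, held 1, 7, 90, 367 and 446 tags, a log2 change of 8.80 (6.32 to 14.11). Lrp1, an endocytic receptor for remnant lipoproteins, held 13, 50, 91, 167 and 120. The scavenger receptor gene Cd36 held 18 to 29 tags and was not called.

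Of 16 droplet and fatty acid genes, 5 were called higher and 2 lower. The largest called higher, by log2 change, were Abhd5, the coactivator of the droplet lipase, with 44, 77, 191, 301 and 302 tags, and G0s2, an inhibitor of that lipase, with 13, 16, 30, 24 and 87. Called lower were Fabp5, a fatty acid binding protein, with 192, 322, 181, 123 and 65 tags, and Mgll, monoglyceride lipase, with 408, 522, 289, 274 and 173. The other 3 called higher were Plin1, Plin4 and Dgat1.

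The 10 matched synthesis genes went the other way, with 5 called lower and none higher and a median log2 change of -0.84. Scd2, a stearoyl-CoA desaturase, held 1160, 643, 965, 930 and 414 tags, a log2 change of -1.49 (-1.65 to -1.32), and Scd1 held 645, 512, 550, 441 and 281, with -1.20 (-1.41 to -0.99). Acaca, Scap and Fasn were the others, each close to the 2-fold limit, and the shift of 0.27 under scaling by constantly enriched windows takes these 3 and Scd1 short of the call, as it does Mgll. None of the 6 lysosomal and esterification genes was called.

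Of 3 partners of Lpl, Angptl4, an inhibitor of the lipase, was called lower, with 273, 177, 144, 170 and 89 tags. Of 8 partners and relatives of Trem2, 3 were called higher. Gpnmb, a membrane glycoprotein of lipid-laden macrophages, held 9, 85, 86, 90 and 83 tags. Trem3 held 6, 5, 13, 14 and 24. Tyrobp, the adaptor through which Trem2 signals, held 331, 370, 690, 991 and 786 tags, a log2 change of 1.25 (1.06 to 1.44), so its start was acetylated in pre-B cells when that of Trem2 was not.

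The starts most like each called member were found by Euclidean distance over 15 libraries on log2 levels, with 5 tags added. For Abca1 they were Cd86 (1.49), Slc12a5 (1.78) and Tmem82 (1.92), for Abcg1 Gm10237 (1.86), Lysmd1 (1.90) and Lasp1 (1.91), and for Trem2 Cd300lh (1.61), Cx3cr1 (1.70) and Pilrb2 (1.98). For Apoe they were A930018M24Rik (2.36) and Ugt1a6a and Ugt1a6b (2.81 each, with identical counts). For Pparg, called in H3K27Me3, they were Gm5218 (1.20), Itgb8 (1.24) and Gm10212 (1.31). No called member was among the 3 nearest starts of another, and the nearest member to each of Abca1, Abcg1 and Apoe was Nr1h3, at 4.32, 3.49 and 6.07, with 10.6%, 11.4% and 11.4% of all starts as near or nearer. The nearest member to Trem2 was Lpl, at 7.50, with 25.2% as near. The nearest to Pparg was also Lpl, at 1.60, with 0.237% of starts as near to Pparg and 2.33% as near to Lpl, and both of these starts held few tags of either active mark.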

How the data were processed

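ChIP-seq libraries for H3K4Me1, H3K27Ac and H3K27Me3 at 0, 3, 12, 24 and 48 hpi were grouped by GEO's labels (15 libraries, 1 per group). The authors aligned reads with Eland or Bowtie without mismatches to mm9 and removed non-unique and identical tags. Which aligner served which library is not given in the sources used here. The deposited files hold tag positions of 36 bp without strand, not counts. The deposited libraries treat identical tags unequally. Those of 0 and 48 hpi hold at most 1 tag per position for H3K27Me3 but up to 205 and 135 for H3K4Me1, and the others hold at most 2. Therefore 1 tag per position was kept, placed 18 bp from its start. In 3 files, 2 lines without a position were dropped. Libraries were thinned at random to the smallest of the mark.

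Counts were made with Python 3 code (versions NumPy 2.4.6, SciPy 1.17.1 and pandas 2.3.3) on NCBIM37 (mm9) with GENCODE vM1 starts; of 264559265 tags, 0 fell in bins of unknown bases and 3 past a chromosome end. Windows were enriched at a Poisson upper tail under 0.001 over the genome mean. Tag counts have exact Poisson intervals, and log2 ratios exact binomial intervals. No input library was used here, and no test was possible. The call rule was tested on simulated data, where unchanged starts were called most often in H3K27Me3. Members and lists were chosen with earlier results of these data known. Named were all 8 members, the largest distal gain of each, and of each other list the 2 largest called changes per direction and any gene in a member locus. Nr1h2, Srebf1, Cd36, Tyrobp and the remaining called lipid genes, also those under other scaling, were named after their values were seen. Scaling, tag placement, window width, start choice and call limits were varied. Chromosomes 1 to 19 and X were used. Of the pre-B markers, 1 is left out, and it is not reported here.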

Additional observations from a re-analysis of the deposited data

How the results depend on the processing

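The number of member starts called higher in H3K27Ac was 3, and 5 when each gene was read at its transcript start with the most H3K27Ac tags, which added Plin2 and Pparg. That start was chosen by the same tags that were then called, and no share of all starts is given for it. The Pparg start so added held 2 tags at 0 hpi and 26 at 48 hpi, under the enrichment limit of 34. Plin2 was also added by scaling by windows enriched at all 5 times, and it passed 2-fold with 6 kb at the start. With 1 kb at the start it was 2, without Abca1. The number called lower in H3K27Me3 was 0, but 1 under scaling by windows enriched at all 5 times, 1 with 1 kb at the start and 2 with a limit of 1.5-fold. The H3K27Me3 change at the Pparg start turned from 1.51 to -0.32 with 1 kb at the start. Of the other listed genes, 9 were called lower in H3K27Ac, but 4 under scaling by windows enriched at all 5 times. This alternative was added for that list and for times of enrichment after the data were seen. The cause was not tested. Windows that gained H3K27Ac numbered 87 to 137 over the alternatives, beside 100. The genome share of 7.47% belongs to the rule used for the 100, and no such share is given for the alternatives. Of 258 single log2 values recomputed under 9 alternatives for 32 results, 237 stayed in their counting interval, 20 moved outside it and 1 reversed. Another random seed, tags placed at their start and both scalings by library total each left all 32 values inside it. With 1 kb at the start, 9 of 18 values stayed, 8 moved outside and 1 reversed. Values in 1 kb were computed only where both counts were above 0. No paired analysis was possible because there was only 1 library in any group. Depth limits the starts of Pparg and Lpl, where H3K27Ac was 7 tags or fewer, and H3K27Me3 at most starts, where the median over all starts was 14 tags at 0 hpi. No replicate, input or RNA measurement was analysed here, so values describe these libraries.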
